A study of Mus musculus with 9 samples.

Results

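The cytosolic ribosomal protein genes encode the proteins of the 40S and 60S subunits that translate the cell's own mRNA. Members were all gene symbols in the 9 expression files that begin with Rpl or Rps and a digit, together with Rpsa, Rplp0, Rplp1 and Rplp2. The 10 kinase genes whose symbols begin with Rps6k and 7 names that carry the pseudogene mark -ps were left out. This gave 87 of the 22972 gene names. Of these, 77 encode core proteins of the ribosome, 31 in the 40S subunit, 43 in the 60S subunit and 3 in the P-stalk, and 10 are paralogues, retrogenes or genes named after a ribosomal protein.

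RNA was sequenced from B16 cells, a mouse melanoma line that the labels give as WT, grown on a flexible PDMS film and sampled at day 3. A total of 9 libraries were analyzed. CTL cells were not treated (n = 3), MS cells were stretched cyclically through the film for 72 h (n = 3), and Blebb cells were given blebbistatin, an inhibitor of myosin II, at 100 ng/mL for 72 h (n = 3). The labels of the last group name the drug alone, while the paper describes the drug together with straining, so the straining state of this group is uncertain here. The labels call the replicates of a group parallel experiments and do not say whether they were separate cultures, so p-values measure only the spread between these libraries, which may be technical.

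Ribosomal proteins assemble with rRNA in the nucleolus and are needed in equal amounts, apart from the stalk proteins, of which the ribosome holds several copies. Most of their mRNAs begin with a run of pyrimidines at the 5′ end, the TOP motif, through which mTORC1 and LARP1 control their translation. Much of the control of these genes therefore acts on translation and protein stability, which an mRNA level does not show. As they are among the most abundant mRNAs of a growing cell, they are often read as a sign of growth, and proliferation under straining was the question of the study.

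Levels are given as FPKM, fragments per kilobase of transcript, scaled to the mapped fragments of the library, which allows genes of different length to be compared within a library. The column sums lay between 439939 and 484093 FPKM, and 9529 to 10388 genes reached 1 FPKM. The number of reads was unknown, so precision was judged from replicates. All 10 melanoma and melanocyte markers were at or above 1 FPKM in every library (summed level 7687 to 13520 FPKM). None of the 6 fibroblast and 6 keratinocyte markers reached 1 FPKM in any library, with sums of at most 0.332 and 0.0314 FPKM, and 1 or 2 of 6 macrophage markers did (sum 2.10 to 4.32 FPKM). The libraries CTL 1, MS 3 and Blebb 2 stood apart from their groups. They had weights of -0.52, -0.15 and -0.55 on the first principal component of all genes tested. The weight was -0.076 for Blebb 1 and 0.11 to 0.43 for the other libraries. This component held 70.1% of the variance left after each gene's mean and each library's mean were subtracted. The mitochondrially encoded genes took 10.8%, 11.8% and 8.27% of the summed FPKM in these 3 libraries and 5.07% to 7.19% in the other 6.

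Promoter sequences are shown first because the TOP run is a feature that the rule by name did not use. RefSeq promoters (mouse build GRCm38.p6, 250 bases before to 50 bases after a start) were matched by symbol for 57 of the 77 core members. A TOP-like run was searched for on the gene's strand as a C followed by at least 6 pyrimidines that begins within 10 bases of an annotated start. Such a run was present in 27 of 57 core genes (47.4%), against 15.3% of the 7908 genes tested that had a promoter. Per start it was present in 40.3% of the core members' starts and 12.6% of the starts of genes tested. Each line gives 30 bases before the start and 20 bases from it, 5′ to 3′ on the gene's strand, with the run in capitals. The first 4 genes lie on the low side and the last 4 on the high side of an order of members described further on. That order follows the members' shared variation between libraries. The genes shown were taken from those with a run, and the outermost member at each end is not among them.
Rpl28 (chr7:4792935-4792984, plus strand): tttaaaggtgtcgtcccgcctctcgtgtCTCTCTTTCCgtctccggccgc
Rps9 (chr7:3704011-3704060, plus strand): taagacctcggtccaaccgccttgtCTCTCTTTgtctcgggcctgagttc
Rpl10a (chr17:28328441-28328490, plus strand): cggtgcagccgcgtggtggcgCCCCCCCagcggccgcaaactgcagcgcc
Rpl14 (chr9:120571487-120571536, plus strand): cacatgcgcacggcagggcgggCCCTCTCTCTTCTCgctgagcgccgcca
Rpl35a (chr16:33056452-33056501, plus strand): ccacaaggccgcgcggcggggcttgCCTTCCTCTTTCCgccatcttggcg
Rpl38 (chr11:114668550-114668599, plus strand): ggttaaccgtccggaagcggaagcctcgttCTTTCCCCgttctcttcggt
Rpl31 (chr1:39367821-39367870, plus strand): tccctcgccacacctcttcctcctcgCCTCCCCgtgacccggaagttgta
Rpl35 (chr2:39005112-39005161, minus strand): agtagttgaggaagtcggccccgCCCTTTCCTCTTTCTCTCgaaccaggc

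The 8 sequences show runs of 7 to 18 pyrimidines. They were chosen for having a run, so they do not compare the ends of the order. Of the 29 core members with a promoter and a score below 0 on the first component of the members, 14 had a run, and of the 28 with a score above 0, 13 had one. Other motifs were searched on both strands of the 300 bases. CCGGAA, the core of ETS family sites, was present in 56.1% of core genes and 35.1% of genes tested. AAGATGG, a YY1-like motif, was present in 15.8% against 9.09%, and TATAAA in 10.5% against 7.64%. GGGCGG, an Sp1-like motif, was present in 61.4% against 72.7%. A match describes the letters only and was not tested as a site.

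The core members were among the most abundant mRNAs of B16 cells. Their mean level over 9 libraries ran from 32.2 FPKM (Rpl21) to 2795 FPKM (Rplp1), an 86.7-fold range with a median of 681 FPKM. Of the 77, 64 lay between 200 and 1500 FPKM, 8 lay above and 5 below. Among all genes, 38 of the 77 ranked in the first 100 by mean level, 66 in the first 200 and 74 in the first 500. The levels of the single members are shown in the plot of FPKM by gene.

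**Figure D1:**
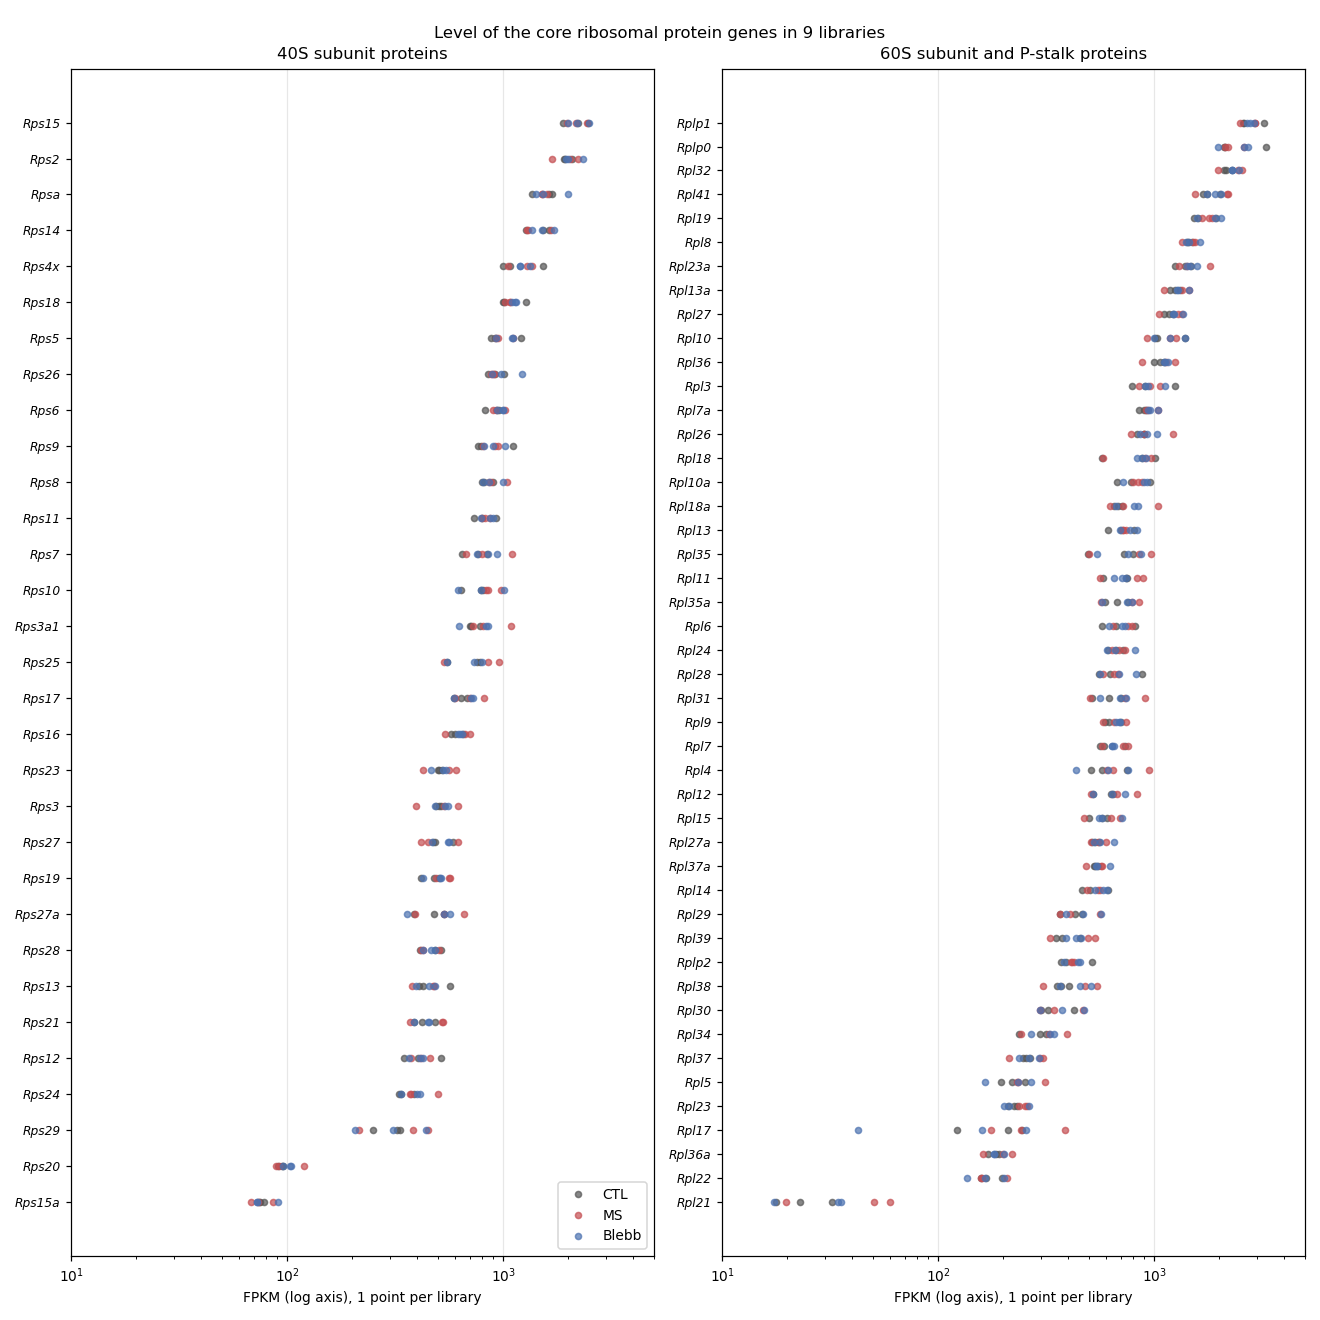
FPKM of the 77 core members on a log axis, with 1 point for each of the 9 libraries, coloured by group. The left panel holds the 40S proteins and the right panel the 60S and P-stalk proteins, each ordered by mean level. The points of the 3 groups lie on top of each other for nearly every gene, and Rpl17 and Rpl21 have the widest spread.

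The highest level belonged to Rplp1, a stalk protein that helps recruit elongation factors (chr9:61913284-61914542, GRCm38). It measured 3235, 2576 and 2605 FPKM (CTL), 2929.7, 2934 and 2490.4 FPKM (MS) and 2912, 2699.9 and 2773 FPKM (Blebb). The P-stalk holds more than 1 copy of its acidic proteins, and Rplp0, which anchors them to the 60S subunit (chr5:115559467-115563727), came next. Its levels were 3280.3, 2134 and 2096 FPKM (CTL), 2186, 2129 and 2599 FPKM (MS) and 2595, 2732 and 1971 FPKM (Blebb). CTL 1 was the highest library for Rplp0, and the groups overlapped. The third stalk gene, Rplp2 (chr7:141447370-141451585), was much lower at 516, 391 and 370.3 FPKM (CTL), 425, 411 and 418 FPKM (MS) and 453, 444 and 384 FPKM (Blebb). The ratio of Rplp1 to Rplp2 within a library was 6.63 ± 0.47 (SD, n = 9).

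The other core members with the highest levels came from both subunits. Rpl32 had a mean of 2288 FPKM over 9 libraries, Rps15 2209 FPKM, Rps2 2017 FPKM, Rpl41 1899 FPKM, Rpl19 1768 FPKM and Rpsa 1587 FPKM. Rpl41 encodes the shortest protein of the ribosome, with a coding length of 75 bases, and Rpsa is also known as the laminin receptor. By group, Rpsa measured 1559.7 ± 173 FPKM (CTL), 1545 ± 49.2 FPKM (MS) and 1655 ± 306 FPKM (Blebb), each with its SD (n = 3). The groups of these 6 genes overlapped, and between neighbours in the order the gap in mean level was smaller than the SD of at least one of the genes.

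At the low end, Rpl21 was separated from every other core member. Its levels (chr5:146832890-146837032) were 17.6, 22.9 and 32.3 FPKM (CTL), 59.97, 50.3 and 19.7 FPKM (MS) and 34.4, 17.4 and 35.4 FPKM (Blebb). MS 1 and MS 2 were the highest, while CTL 1, MS 3 and Blebb 2 were all under 20 FPKM. The next core members were Rps15a with a mean of 76.7 FPKM, Rps20 with 98.1 FPKM, Rpl22 with 172 FPKM and Rpl36a with 188 FPKM. Of the 50-base windows of the principal Rpl21 transcript in GENCODE M21, 55.5% occur in transcripts of 82 other genes, pseudogenes included.

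Such shared sequence was the rule among the members. In the median core member 55.5% of the windows occurred in the transcripts of another gene, 47 of 77 shared at least 50%, and 1 shared none. How reads that match several places were counted is not given in the sources used here, so the split of reads between a member and its copies is uncertain, and levels of single members should be read with this limit. Across the 77 core members the shared percentage had an r of 0.15 with the mean log2 level. GC content of the principal transcript had an r of 0.46 with the level and transcript length one of -0.079. These are correlations across genes, which are not independent replicates.

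The members were short genes. The principal transcripts of core members had a median length of 729 bases, against 2765 bases for genes tested, and a median coding length of 456 bases against 1344. Their median GC content was 51.8%, close to the 50.9% of all genes tested. The core members are spread over 19 chromosomes by the GRCm38 annotation, with 14 on chromosome 7 and 4 on the X chromosome.

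Summed over all members, the groups overlapped. The members took 13.5%, 13.5% and 13.4% of the summed FPKM in CTL, 14.9%, 14.2% and 12.4% in MS, and 14.5%, 13.0% and 14.3% in Blebb. The group values were 13.5% ± 0.027 in CTL, 13.9% ± 1.30 in MS and 13.9% ± 0.81 in Blebb (SD, n = 3 each). MS 1 was the highest of all libraries and MS 3 the lowest, so the MS group enclosed every library of the other groups. In bulk RNA, fewer cells of a type and less RNA per cell cannot be told apart.

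MS 3 was also the library with the highest share of mitochondrially encoded genes, 11.8%. With those genes taken out of the sum, the members took 14.5% ± 0.52 in CTL, 15.1% ± 0.93 in MS and 14.9% ± 0.71 in Blebb (SD, n = 3 each), and MS still held both the highest and the lowest library (15.9% and 14.1%). The median member stood at 576, 618 and 613 FPKM in CTL, 749, 643 and 563 FPKM in MS, and 708, 585 and 656 FPKM in Blebb. The lowest library of each group in this median was CTL 1, MS 3 and Blebb 2, the 3 that stood apart above.

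By summed FPKM, the balance of the subunits varied little. The summed FPKM of the 43 core 60S genes was 1.30 ± 0.031 times that of the 31 core 40S genes in CTL, 1.33 ± 0.040 times in MS and 1.32 ± 0.016 times in Blebb (SD, n = 3 each). The range over 9 libraries was 1.26 in CTL 1 to 1.36 in MS 2, and the groups overlapped. By medians the libraries differed more. The median log2 level of core 60S genes minus that of core 40S genes was 0.0075 in CTL 1 and -0.054 in MS 3. It was -0.014 in Blebb 1 and -0.031 in Blebb 2. In the other libraries it lay between -0.22 (CTL 3) and -0.17 (MS 2), so the groups overlapped here too.

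**Figure D2:**
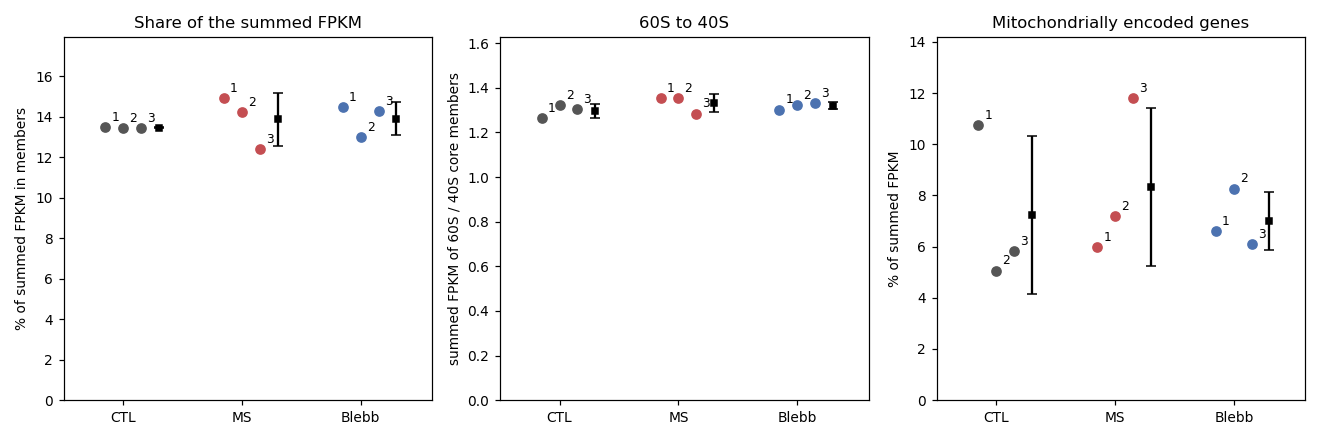
Share of the summed FPKM in the members (left), summed FPKM of the core 60S genes divided by that of the core 40S genes (middle) and share of the mitochondrially encoded genes (right), for 3 libraries per group numbered 1 to 3. Squares and bars are the mean and SD. The groups overlap in all panels, and MS holds the highest (14.9%) and the lowest (12.4%) member share.

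Cyclic straining was compared with CTL first. No member passed the test (limma on log2(FPKM + 1), Benjamini-Hochberg adjustment over the 10109 genes tested, threshold 0.05). The background was 0% of all genes tested as well, the smallest adjusted p of a member was 1.00, and 0 of 84 members had an unadjusted p under 0.05, against 0.0890% of genes higher and 0.0692% lower at that level. Of 84 members tested, 63 had a log2 difference above 0, against 49.5% of all genes tested. The median difference of the members was 0.067 on the log2 scale, against -0.0018 over all genes tested, and the SD of the libraries' member medians within groups was 0.15. Without MS 1 the median was -0.015 with 34 of 84 members above 0, and without MS 3 it was 0.16 with 71 above 0. With CTL 1, MS 3 and Blebb 2 all left out it was 0.18 (all genes -0.046). Each group then had fewer libraries, and 83 of 84 members were above 0, still with no member past the adjusted threshold. The unadjusted count in limma changed with the libraries. It was 3 members without MS 3 (50 of 10109 genes tested) and 3 with CTL 1, MS 3 and Blebb 2 left out (64 genes). Without CTL 3 it was 1 member (27 genes). Other processing of all libraries moved the median in both directions. It was 0.036 with 56 of 84 above 0 after quantile normalization (all genes -0.021). After removal of the length trend it was 0.033 with 53 of 83 above 0 (all genes -0.027). After removal of the GC trend it was 0.083 with 64 of 83 above 0 (all genes -0.0092).

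By subunit, 39 of 43 core 60S genes had a difference above 0 in MS against CTL (median 0.079), as did 20 of 31 core 40S genes (median 0.046). The stalk genes Rplp0, Rplp1 and Rplp2 had differences below 0 (median -0.012). The 3 core genes without overlap between the groups, all higher in MS, were Rps10 of the 40S subunit and Rpl23 and Rpl7a of the 60S subunit, 3.57% of the members against 0.524% of all genes tested. None was lower without overlap, against 2.64% of all genes. These 3 were named after their values were seen. Rps10, one of the genes mutated in Diamond-Blackfan anemia, measured 640.4, 811 and 789 FPKM (CTL), 974, 855 and 833 FPKM (MS) and 1014, 620.4 and 789.7 FPKM (Blebb). Every MS library lay above every CTL library for Rps10, while the Blebb libraries spanned both. Its log2 difference was 0.25 ± 0.19 (SE), that of Rpl23 0.16 ± 0.13 (SE) and that of Rpl7a 0.12 ± 0.11 (SE).

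Rpl21 had the largest difference in MS against CTL, 0.71 ± 0.43 (SE), with MS 3 inside the CTL range (adjusted p = 1.00, limma). The next largest were Rpl17, a protein at the mouth of the exit tunnel, with 0.45 ± 0.60 (SE), and Rpl22l1, the paralogue of Rpl22, with 0.26 ± 0.21 (SE). For Rpl21 the 95% interval of the difference ran from -0.26 to 1.68. All 3 rested in part on MS 1, without which Rpl21 was at 0.41, Rpl17 at 0.15 and Rpl22l1 at 0.042, and without MS 3 they were at 1.19, 0.72 and 0.42. At the other end were Rplp0 at -0.093 ± 0.21 (SE), Rpl28 at -0.077 ± 0.20 (SE) and Rps27 at -0.069 ± 0.17 (SE). For these last 3 genes leaving out single libraries turned the direction, for Rplp0 to 0.12 and for Rpl28 to 0.11 without CTL 1, and for Rps27 to 0.041 without MS 3.

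Blebb was then compared with MS. As both comparisons use the MS libraries, their values are not independent. Again no member passed the test, against 0% of all genes tested (smallest adjusted p of a member 0.897). The median of the members was 0.016 on the log2 scale, against -0.0059 over all genes tested, and 48 of 84 members were above 0, against 49.0% of all genes. This median lay between -0.048 and 0.049 under the other settings and between -0.073 without MS 3 and 0.074 without MS 1, so that it had no stable direction. The core 60S genes (22 of 43 above 0, median 0.0047) and 40S genes (18 of 31 above 0, median 0.019) were divided between both directions. With CTL 1, MS 3 and Blebb 2 left out, the members' median was -0.048 (all genes -0.011) and 25 of 84 were above 0.

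Rps27rt, a retrogene copy of Rps27, was the member with the largest difference above 0 in this comparison and the one member with an unadjusted p under 0.05 in limma, against 0.722% of genes higher and 0.524% lower at that level. It measured 65.6, 74.95 and 58.9 FPKM (CTL), 59.7, 74.9 and 56.2 FPKM (MS) and 86.6, 103 and 68.5 FPKM (Blebb). The Blebb libraries were higher in the mean, although Blebb 3 lay below MS 2. The log2 difference was 0.42 ± 0.18 (SE) and the adjusted p 0.897. No member had an unadjusted p under 0.05 with median-of-ratios factors, without the mean-variance trend, in a fit of 2 groups, with either GC trend removed and no block, or without CTL 1, MS 1, Blebb 1 or Blebb 2. The difference of Rps27rt was 0.28 without Blebb 2, and 0.20 with CTL 1, MS 3 and Blebb 2 left out. Its transcript shares 91.1% of its windows with other genes and Rps27 shares 98.6%, so reads of the retrogene and of Rps27 are hard to assign.

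The largest differences below 0 in Blebb against MS were those of Rpl17 at -1.07 ± 0.60 (SE), Rpl21 at -0.48 ± 0.43 (SE) and Rpl4, which lines the exit tunnel, at -0.29 ± 0.25 (SE). Rpl17 measured 122, 211 and 245 FPKM (CTL), 386, 241 and 175 FPKM (MS) and 159, 42.4 and 254 FPKM (Blebb). Blebb 2, at 42.4 FPKM, was far below all other libraries, whereas Blebb 3 at 254 FPKM lay above MS 2 and MS 3. Without Blebb 2 the difference was -0.34 for Rpl17, -0.16 for Rpl21 and -0.078 for Rpl4. Rpl21 reached -0.96 without MS 3, and Rpl17 and Rpl4 reached -1.61 and -0.48 without Blebb 3. Rps26, which contacts the mRNA at its exit from the 40S subunit, and Rpl18 followed Rps27rt at the upper end, with 0.19 ± 0.14 (SE) and 0.13 ± 0.25 (SE), and Rps26 was at 0.059 without Blebb 1 and Rpl18 turned to -0.098 without MS 3. Rps18, a protein of the 40S head named after its values were seen, was the member without overlap between the groups in this comparison. It was higher in Blebb by 0.089 ± 0.13 (SE) on the log2 scale. This was 1.19% of the members against 3.05% of all genes tested, and 0 members were lower without overlap, against 0.683% of all genes.

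**Figure D3:**
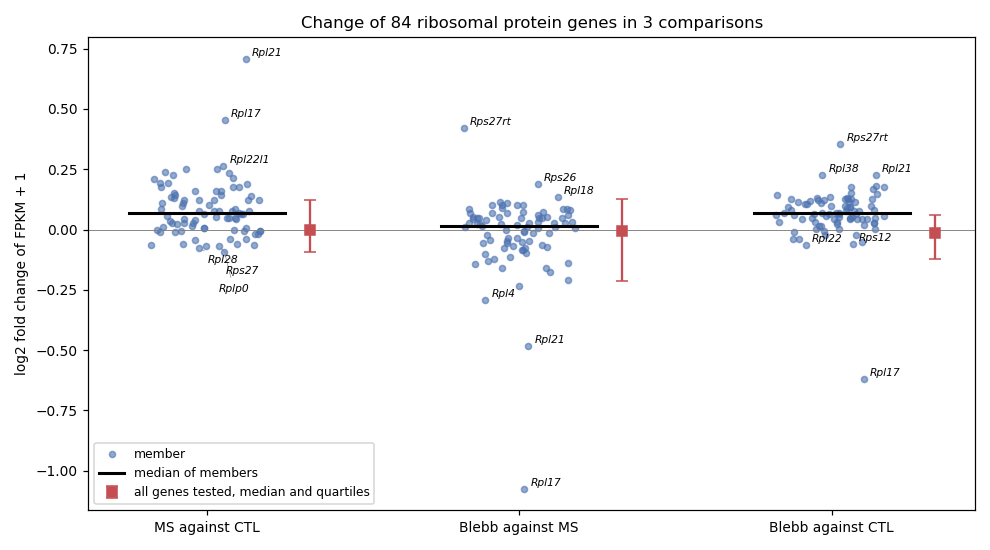
Log2 fold change of FPKM + 1 for the 84 members tested in 3 comparisons. Each point is a member, black lines are the members' medians (0.067, 0.016 and 0.067), and squares with bars are the median and quartiles of all 10109 genes tested. No member passed the adjusted threshold in any comparison.

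Blebb against CTL shares its libraries with both comparisons above. Of 84 members, 74 had a difference above 0, against 46.0% of all genes tested, with a median of 0.067 against -0.013. With CTL 1, MS 3 and Blebb 2 left out, the median was 0.12 (all genes -0.044) and 79 were above 0. Without Blebb 1 it was 0.034 with 59 above 0. After quantile normalization the members' median was 0.014 with 54 above 0, next to 0.010 over all genes. With the length trend removed it was 0.028 with 57 of 83 above 0, next to 0.012. Other settings raised it. With median-of-ratios factors it was 0.099 with 78 of 84 above 0, next to 0.016. With the GC trend removed it was 0.082 with 76 of 83 above 0, next to 0.0045. No member passed the test (smallest adjusted p 1.00, background 0%), and 0 had an unadjusted p under 0.05, against 0.0791% of genes higher and 0.00989% lower. That unadjusted count was 1 member without Blebb 3 (94 of 10109 genes tested) and 1 with the replicate block (10 genes). The core 60S genes had 39 of 43 above 0 and the core 40S genes 27 of 31. Rpl27 and Rpl7a of the 60S subunit, named after their values were seen, were the 2 members without overlap, both higher in Blebb, 2.38% of the members against 0.930% of all genes, and 0 were lower without overlap, against 1.15% of all genes. Rpl7a measured 851, 896 and 916 FPKM (CTL), 921, 1043 and 938 FPKM (MS) and 1037, 954 and 934 FPKM (Blebb). Its log2 difference from CTL was 0.13 ± 0.11 (SE) in Blebb and 0.12 ± 0.11 (SE) in MS.

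At the upper end of Blebb against CTL were Rps27rt at 0.36 ± 0.18 (SE), Rpl21 at 0.23 ± 0.43 (SE) and Rpl38, a 60S protein linked to the translation of Hox mRNAs, at 0.22 ± 0.22 (SE). At the lower end were Rpl17 at -0.62 ± 0.60 (SE), Rpl22 at -0.063 ± 0.18 (SE) and Rps12 at -0.058 ± 0.16 (SE). Without Blebb 2, Rps27rt was at 0.22, Rpl21 at 0.55 and Rpl38 at 0.36, while Rpl21 was at 0.027 without CTL 1 and Rpl38 at 0.12 without Blebb 3. None of Rpl17, Rpl22 and Rps12 kept its direction when each library was left out in turn. Rpl17 was at 0.12 without Blebb 2, Rpl22 at 0.077 without Blebb 3 and Rps12 at 0.094 without CTL 1.

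Some members are known for a role beside translation. Rps6, which is phosphorylated by the S6 kinases downstream of mTORC1, measured 961, 820.4 and 937 FPKM (CTL), 1023, 899.5 and 924 FPKM (MS) and 1004, 996 and 941 FPKM (Blebb) and had the third smallest spread of the core genes. Rpl5 and Rpl11 bind the 5S rRNA and, when free, the p53 regulator Mdm2. Rpl5 stood at 223 ± 29.5 FPKM (CTL), 259 ± 45.6 FPKM (MS) and 222 ± 53.3 FPKM (Blebb), each with its SD (n = 3), and Rpl11 at 687 ± 95.2 FPKM (CTL), 762 ± 173 FPKM (MS) and 699 ± 44.9 FPKM (Blebb), each with its SD (n = 3). The lowest library was Blebb 2 for Rpl5 and MS 3 for Rpl11. The human counterparts of 18 members are among the Diamond-Blackfan anemia genes. Of these, 14 were above 0 in MS against CTL (median 0.13), 7 in Blebb against MS (median -0.053) and 16 in Blebb against CTL (median 0.093). For all 84 members tested the counts were 63, 48 and 74, with medians of 0.067, 0.016 and 0.067. Whether the 18 differ from the other members was not tested, and 0 of them passed the test in any comparison.

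The spread between libraries was small for a typical member. The SD of log2(FPKM + 1) over 9 libraries had a median of 0.17 for the 84 members, 0.23 for the other 10025 genes tested and 0.19 for the 645 other genes that averaged 100 FPKM or more. Rpl8 had the smallest spread of the core genes (SD 0.083, coefficient of variation 5.80%), followed by Rpl7a, Rps6 and Rpl37a. Rpl8 measured 1421, 1434 and 1494 FPKM (CTL), 1538, 1509 and 1341 FPKM (MS) and 1631, 1455 and 1401 FPKM (Blebb). The largest spreads were those of Rpl17 (SD 0.90 on the log2 scale, a 9.10-fold range), Rpl21 (0.63, 3.45-fold), Rps29 (0.41, 2.19-fold) and Rpl35 (0.36, 1.95-fold). Rps29, a small zinc-binding 40S protein, measured 249.8, 333 and 324 FPKM (CTL), 382, 451 and 215 FPKM (MS) and 310.2, 206 and 442 FPKM (Blebb), and Rpl35, which lies at the tunnel exit, 494, 794 and 725 FPKM (CTL), 963, 850.2 and 501 FPKM (MS) and 869, 544 and 757 FPKM (Blebb). For both genes CTL 1, MS 3 and Blebb 2 were the lowest library of their group.

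This variation ran through many members together. Before the first principal component of the members was taken, each gene's mean and each library's mean over the members were subtracted. Scores on both sides of 0 therefore follow from the method. The component held 61.9% of the variance that remained. The shift common to the members is not part of it, with library means of their deviations from -0.15 (MS 3) to 0.21 (MS 1). CTL 1, MS 3 and Blebb 2 had weights of -0.46, -0.21 and -0.60 on it, Blebb 1 of -0.025, and the other libraries of 0.15 to 0.40. The component separated libraries within each group rather than the groups, and its weights were ordered much like those of all genes given above. The members with the lowest scores were Rplp0, Rpl28, Rpl10, Rpl3, Rps9, Rps4x and Rps13. Relative to the other members, their levels were higher where the weights were below 0. Those with the highest scores were Rpl17, Rpl21, Rps29, Rpl35, Rpl4, Rps25, Rps27a, Rpl5 and Rpl31 and the paralogue Rps27l. Genes were not scaled to equal variance. Rpl17 (score 2.13) and Rpl21 (1.37) therefore weighed most in the component, ahead of Rps29 (0.88) and, at the other end, Rplp0 (-0.77).

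**Figure D4:**
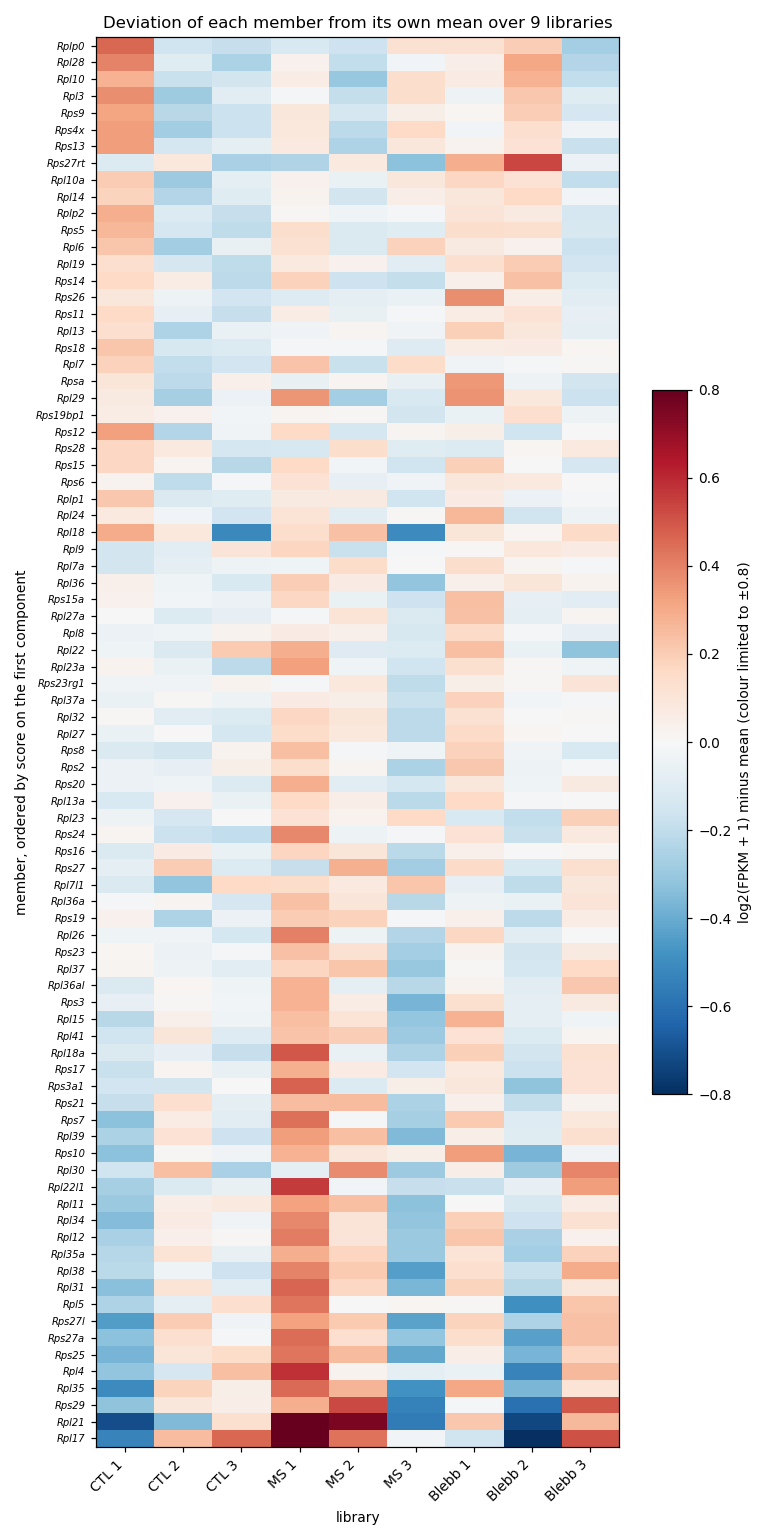
Log2(FPKM + 1) of each of the 84 members tested minus its own mean over 9 libraries, with members ordered by their score on the first principal component (rows) and libraries in columns. Red is above and blue below the mean, and colours stop at 0.8 in either direction. CTL 1, MS 3 and Blebb 2 are mostly red for the top rows (Rplp0 first) and blue for the bottom rows (Rpl17 last).

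The ratio of genes at opposite ends shows the size of this variation. Rplp0 to Rpl35 was 6.64, 2.69 and 2.89 in CTL, 2.27, 2.50 and 5.18 in MS, and 2.98, 5.02 and 2.61 in Blebb. The ratio was 5.02 or above in CTL 1, MS 3 and Blebb 2 and 2.98 or below in the other 6 libraries, whereas the 3 groups overlapped. Rpl3, a large protein of the peptidyl transferase region, measured 1252, 793 and 907 FPKM (CTL), 958, 847 and 1065 FPKM (MS) and 941, 1123 and 904 FPKM (Blebb), and Rpl10, which joins the 60S subunit late in its maturation, measured 1383, 1005 and 1028 FPKM (CTL), 1184, 922 and 1256 FPKM (MS) and 1189, 1383 and 994 FPKM (Blebb). Within their groups both were highest in CTL 1, MS 3 and Blebb 2, and so was the X-linked Rps4x. The score of a member had an r of -0.24 with its GC content, -0.22 with its coding length and -0.042 with its transcript length, across 83 genes that are not independent. The deviation of a gene from its mean had an r with GC content between -0.64 (MS 1) and 0.55 (Blebb 1) over 9663 genes, so GC content moved with the libraries, but not in the same order. Its part in the members' levels was not tested beyond the settings given in the closing section.

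Profiles across the 9 libraries were compared with the median of the members. The r of a member with this median had a median of 0.63, was above 0.5 in 49 of 84 members and below 0 in 15. For the other 10025 genes tested the median r was 0.12, with 2686 above 0.5 and 4505 below 0. Rpl34 was closest to the median (r = 0.95), and Rpl3 (-0.47), Rplp0 (-0.45), Rps28 (-0.34) and Rpl10 (-0.33) were farthest. For each member the median was taken over the other tested members. The libraries are the same for all genes, and no test was made. The 8 genes outside the members with the most similar profile, among genes that averaged 10 FPKM or more, were Vps29 (r = 0.97), Psmb2, S100a10, Tomm20, Chrac1, Nme2, Nop10 and Taldo1 (r = 0.93). Nop10 is a part of the box H/ACA particles that modify rRNA.

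Paralogues and retrogenes gave levels well under or near those of their core partners. Rpl22l1 measured 51.4, 57.2 and 59.6 FPKM (CTL), 91.9, 61.1 and 54.4 FPKM (MS) and 54.7, 59.2 and 78.7 FPKM (Blebb), against 166, 157 and 197 FPKM (CTL), 208, 159 and 158 FPKM (MS) and 202, 165 and 136 FPKM (Blebb) for Rpl22. The ratio of Rpl22 to Rpl22l1 was 2.81 ± 0.58 (SD, n = 9), lowest in Blebb 3 (1.73) and highest in Blebb 1 (3.69), and the groups overlapped. Rps27l, a paralogue of Rps27 known as a target of p53, measured 268, 421 and 359 FPKM (CTL), 457, 423 and 271 FPKM (MS) and 415, 308 and 431 FPKM (Blebb), and Rps27 measured 484, 585 and 472 FPKM (CTL), 447, 619 and 418 FPKM (MS) and 564, 467 and 555 FPKM (Blebb). Their ratio was 1.41 ± 0.22 (SD, n = 9). In MS 1, at 0.978, the paralogue exceeded its partner.

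Rpl36a and its paralogue Rpl36al were expressed at about the same level in each library, with a ratio of 1.08 ± 0.073 (SD, n = 9). Rpl36a measured 182 ± 10.2 FPKM (CTL), 194 ± 30.5 FPKM (MS) and 188 ± 11.5 FPKM (Blebb), each with its SD (n = 3), and Rpl36al 168 ± 7.94 FPKM (CTL), 174 ± 32.3 FPKM (MS) and 179.9 ± 19.1 FPKM (Blebb), each with its SD (n = 3). Rpl7l1, a relative of Rpl7, was 14.3 ± 1.99 times lower than Rpl7 (SD, n = 9), and Rps27rt 7.28 ± 1.15 times lower than Rps27. Rps23rg1, a retrogene of Rps23, was at 3.51 ± 0.102 FPKM (CTL), 3.40 ± 0.441 FPKM (MS) and 3.70 ± 0.156 FPKM (Blebb), each with its SD (n = 3). Rps19bp1, named for binding to Rps19, was at 49.6 ± 1.49 FPKM (CTL), 47.5 ± 3.10 FPKM (MS) and 49.4 ± 3.73 FPKM (Blebb), each with its SD (n = 3). Neither gene passed the test in any comparison (adjusted p between 0.897 and 1.00, limma).

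The remaining 3 members were at or near 0. Rpl10l and Rpl39l, known from testis, were listed at 0 in all 9 libraries. Rpl3l, known from muscle, was listed at 0 in 7 libraries and reached 0.0454 FPKM at most. An exact permutation test gave a two-sided p of 1 in each comparison (3 against 3 libraries allow no p below 0.10). Their core counterparts had means of 977 FPKM (Rpl3), 1149 FPKM (Rpl10) and 424 FPKM (Rpl39).

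**Figure D5:**
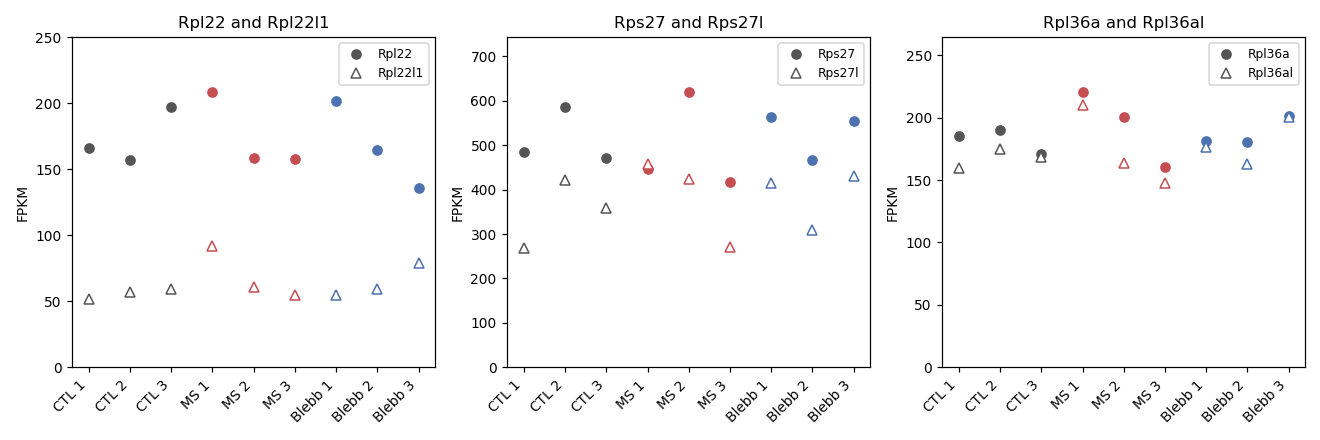
FPKM of 3 core members (filled circles) and their paralogues (open triangles) in 9 libraries, coloured by group. Rpl22l1 lies below Rpl22 in every library, Rps27l lies below Rps27 in all but MS 1, and Rpl36al lies close to Rpl36a throughout.

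The genes Fau and Rack1, whose proteins are also on the ribosome, were checked beside the members. Fau encodes a 40S protein fused to a ubiquitin-like protein, and Rack1 is a scaffold on the 40S head. Fau measured 523, 477 and 435 FPKM (CTL), 564, 484 and 463 FPKM (MS) and 496, 479.7 and 481 FPKM (Blebb), and Rack1 measured 1620.3, 1108 and 1038 FPKM (CTL), 1178, 1091 and 1274 FPKM (MS) and 1383, 1597 and 1003 FPKM (Blebb). Neither passed the test in any comparison, and the groups overlapped.

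Other genes of the pathway were taken from lists by function, none of which had a gene past the adjusted threshold in any of the 3 comparisons. For every list that follows, the background is the share of all genes tested above 0. It was 49.5% in MS against CTL, 49.0% in Blebb against MS and 46.0% in Blebb against CTL. Of 18 translation factors and other genes with TOP mRNAs, 11 were above 0 in MS against CTL (median 0.027) and 7 in each of the other comparisons (median -0.056 against MS and -0.015 against CTL for Blebb). Npm1, a nucleolar chaperone of ribosome assembly, measured 53.0, 150.3 and 214 FPKM (CTL), 295, 193 and 103 FPKM (MS) and 113, 44.0 and 239 FPKM (Blebb) and had the largest difference in MS against CTL, 0.59 ± 0.69 (SE). Of 90 ribosome biogenesis genes, 62 were above 0 in MS against CTL (median 0.13), 35 in Blebb against MS (median -0.13) and 42 in Blebb against CTL (median -0.016). Nucleolin, Ncl, measured 3.14, 19.2 and 24.8 FPKM (CTL), 42.0, 10.7 and 11.0 FPKM (MS) and 8.66, 3.55 and 21.8 FPKM (Blebb). Npm1 and Ncl were lowest in CTL 1 and Blebb 2 and highest in MS 1.

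Of 15 genes of RNA polymerase I and its factors, which make the rRNA, 11 were above 0 in MS against CTL (median 0.087), 4 in Blebb against MS (median -0.041) and 7 in Blebb against CTL (median -0.0015). Of 21 tested genes of mTORC1 and TOP control, 7, 12 and 8 were above 0 (medians -0.035, 0.054 and -0.043). Mtor was at 10.7, 10.4 and 10.7 FPKM (CTL), 8.72, 9.39 and 10.6 FPKM (MS) and 10.5, 11.3 and 9.50 FPKM (Blebb). Larp1, the TOP-binding protein, was at 14.3, 24.0 and 30.4 FPKM (CTL), 23.2, 20.2 and 19.6 FPKM (MS) and 22.3, 16.4 and 25.3 FPKM (Blebb), lowest in CTL 1 and Blebb 2. Myc, a driver of ribosome biogenesis, was at 9.90, 26.6 and 31.3 FPKM (CTL), 25.9, 24.0 and 10.9 FPKM (MS) and 35.9, 11.5 and 32.1 FPKM (Blebb), and its low libraries were also CTL 1, MS 3 and Blebb 2. None of the 8 snoRNA host genes of the TOP class was found by symbol in the files.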

How the data were processed

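The authors extracted RNA with TRIzol, made mRNA libraries with a SMARTER kit, and deposited 1 table per library with an FPKM value for each gene symbol. In the table of CTL 1 the column is headed by the sample's name and its values were taken as FPKM too. The submitters' processing notes name GRCm38 and mm10. The aligner, the counting program, the annotation and any filter are not given in the sources used here. Groups were taken from the labels.

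Values were compared as log2(FPKM + 1), with a pseudocount of 1, for the 10109 genes that averaged 1 FPKM or more, 84 of 87 members among them. The 3 groups were fitted together in limma 3.58.1 (R 4.3.3, eBayes with a mean-variance trend), two-sided, with p-values adjusted over all genes tested by Benjamini-Hochberg and a threshold of 0.05. The fit was tested on simulated data. A gene under the minimum was compared by an exact permutation test. Fold changes on this scale understate the change of low genes. Plots were drawn in matplotlib 3.10.9.

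Members and lists were chosen with earlier results of these data known. Members were named by level (8 highest and 5 lowest core genes), by change (3 largest and 3 smallest differences per comparison), by spread or lowest correlation with the members' median (4 each), by role, or for being outside the core lists. Lengths, GC content and shared 50-base windows came from GENCODE M21, where 9663 genes tested (95.6%) had a transcript. No replicate was identical to another. Low FPKM values gave no common read step between libraries (1.60% of ratios at most fell into a log2 bin of 0.02), so read depth is unknown.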

Additional observations from a re-analysis of the deposited data

How the results depend on the processing

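Read depth is unknown and each group has 3 libraries, so intervals of single members are wide, and a member that missed the threshold is not shown to be equal between groups. Members past the adjusted threshold were 0 in each comparison under every setting tried, namely a pseudocount of 0.1, other minima, 5 other scalings, no mean-variance trend, a fit of 2 groups at a time, the replicate block, GC or length trends removed, each library left out in turn, and CTL 1, MS 3 and Blebb 2 left out together. The GC trend of the principal transcript and the scaling without mitochondrially encoded genes were chosen after seeing the data.

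The share of summed FPKM in CTL was 13.7% after quantile normalization and 13.3% over core members alone. Leaving out CTL 1, MS 3 and Blebb 2 turned the log2 difference of Rplp0 to 0.028, Rpl28 to 0.094 and Rps27 to 0.0018 in MS against CTL, Rpl18 to -0.061 in Blebb against MS and Rps12 to 0.16 in Blebb against CTL. Removing the GC trend, with or without the replicate block, turned Rps27 to 0.010 (MS against CTL) and Rps12 to 0.046 (Blebb against CTL). With the principal transcript's GC trend, Rpl28 was at 0.031 (MS against CTL), Rpl18 at -0.0021 (Blebb against MS) and Rpl22 at 0.026 (Blebb against CTL). With single libraries left out, Rplp0 ranged from -0.21 to 0.12, Rpl28 from -0.21 to 0.11 and Rps27 from -0.24 to 0.041 in MS against CTL, Rpl18 from -0.098 to 0.27 in Blebb against MS, and Rpl22 from -0.21 to 0.077, Rpl17 from -1.16 to 0.12 and Rps12 from -0.19 to 0.094 in Blebb against CTL. The cause was not tested. Same-numbered libraries of different groups had deviations with an r of -0.78 to 0.84 over 9 pairs. Differently numbered ones had an r of -0.88 to 0.92 over 18 pairs. These values do not settle whether same-numbered libraries were made together. With the replicate block 0 members passed the threshold in each comparison.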
